A study of Mus musculus with 12 samples.

Results

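The 8 genes described here encode the ligands and receptors of the platelet-derived growth factor (PDGF) system and of the related receptor KIT. They are the ligands Pdgfa, Pdgfb, Pdgfc and Pdgfd, the receptors Pdgfra and Pdgfrb, the receptor Kit and its ligand Kitl (stem cell factor). They were taken by symbol from the 23329 genes listed for each mRNAseq library, and all 8 were listed. Of these, 7 passed the filter on low counts and entered the tests among 13038 genes, and Kit did not pass. The members were chosen as a family, with earlier results of these data known.

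The cells were stroma grown from small intestine of C57BL6/J mice, called intestinal myofibroblasts in the labels. Embryonic stroma was taken at E14.5, with 6 embryos pooled for each culture, and adult stroma came from 3 adult mice of no stated age. The epithelium was removed, the remaining tissue was digested, and the adherent cells were used at passage 2 to 3. No cell type was sorted. Cells received LPS (lipopolysaccharide, the bacterial surface glycolipid sensed by TLR4, here from E. coli O111:B4) for 6 h at 10 µg/µl, as the labels give the dose, or the vehicle PBS. The 2 stages and 2 treatments made 4 groups of 3 libraries, called here cultures 1 to 3 by the number in their labels. The members are described for the difference between the stages and for the response to LPS at each stage.

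PDGFs are dimeric growth factors that act on mesenchymal cells through a pair of receptor tyrosine kinases. PDGFRA binds the A, B and C chains, PDGFRB binds chiefly the B and D chains, and the C and D chains must be cleaved outside the cell before they can bind. In the gut, PDGFRA marks fibroblasts beneath the epithelium, PDGFRB marks pericytes and many other stromal cells, and KIT marks interstitial cells of Cajal (the pacemaker cells of the gut wall) and mast cells.

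Levels are given as CPM, the gene's counts scaled to a common library total after TMM normalization, which adjusts the totals for differences in RNA composition. The gene counts per library ranged from 18850224 to 32672370, and a floor of 3 counts came to 0.0907 to 0.145 CPM, which covers counting error only. Smooth muscle markers summed to between 13568 and 34901 CPM and fibroblast collagen and matrix markers to between 7624 and 23502 CPM in every library, with Acta2, which encodes smooth muscle actin, the highest of the muscle list. Culture 2 stood apart at both stages in fibroblast markers. Fibroblast markers summed to 8363 and 8825 CPM in adult culture 2 against 16379 to 16833 CPM in the other adult cultures, and to 7624 and 8702 CPM in embryonic culture 2 against 18056 to 23502 CPM in the other embryonic ones. Smooth muscle markers came to 16933 and 18064 CPM in adult culture 2 against 28577 to 29232 CPM, and mesothelial markers to 619.5 and 735.3 CPM in embryonic culture 2 against 141.6 to 152.7 CPM. In embryonic culture 2 the smooth muscle sum was 13568 CPM with LPS and 25655 CPM with PBS. Adult culture 1 differed too, with mesothelial sums of 1421 and 1382 CPM against 430.3 to 694.1 CPM in the other adult cultures. Its macrophage sums were 168.4 and 154.4 CPM against 14.8 to 41.9 CPM. Endothelial markers differed between the adult cultures. In adult culture 2 the 7 of them summed to 1751 CPM (LPS) and 1825 CPM (PBS), against 360.1 and 393.5 CPM in adult culture 3, 21.3 and 26.4 CPM in adult culture 1, and 9.71 to 37.2 CPM in the embryonic libraries. Their 3 most abundant genes, Emcn, Pecam1 and Cdh5, averaged 387.8, 156.8 and 120.8 CPM in adult LPS and at most 7.62, 0.696 and 0.206 CPM in either embryonic group. Kdr, also among the 7, averaged 7.83 CPM in adult LPS and 22.0 CPM in embryonic LPS, and 15.3 and 9.47 CPM with PBS. It made up 28.2 of the 30.3 CPM in embryonic LPS culture 2 and 26.5 of the 29.6 CPM in culture 3. Macrophage markers went the other way from the endothelial sum. Their 10 genes came to 134.2 to 2129 CPM in embryonic libraries and 14.8 to 168.4 CPM in adult libraries. The part of these cells in the values below was not tested. In a bulk library, fewer cells of a type and less RNA per cell cannot be told apart.

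Compared per length of exon, the receptor Pdgfrb had the highest mean of the members in all 4 groups and Kit the lowest. In embryonic LPS the Pdgfrb mean of 28.3 CPM per kb lay beside 27.7 for Pdgfb with overlapping libraries, and the ratio of Pdgfrb to Pdgfb there ran from 0.740 to 1.61. In adult PBS the mean level per kb of exon was 60.4 ± 10.6 CPM for Pdgfrb, 28.7 ± 6.5 for Pdgfa and 15.3 ± 3.7 for Pdgfc (SD, n = 3), and the ranges of these 3 genes did not overlap. Pdgfd at 6.74, Kitl at 5.49, Pdgfra at 4.60 and Pdgfb at 3.74 CPM per kb followed, and each overlapped its neighbour in that order. In embryonic PBS the order was Pdgfrb at 35.3, Pdgfa at 19.9, Pdgfc at 15.1, Kitl at 8.52, Pdgfd at 6.53 and Pdgfb at 3.10 CPM per kb, and only Pdgfrb and Pdgfa among these did not overlap as neighbours. Pdgfra stood below them at 0.350 ± 0.101 CPM per kb (SD, n = 3), the range of 0.239 to 0.435 lying under the lowest Pdgfb library at 1.95. LPS moved Pdgfb up the order, to 27.7 CPM per kb in embryonic LPS (14.6 to 41.7 over the 3 libraries) and 27.2 in adult LPS (10.6 to 37.4 over the 3 libraries), where its libraries overlapped those of Pdgfa at both stages.

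**Figure D1:**
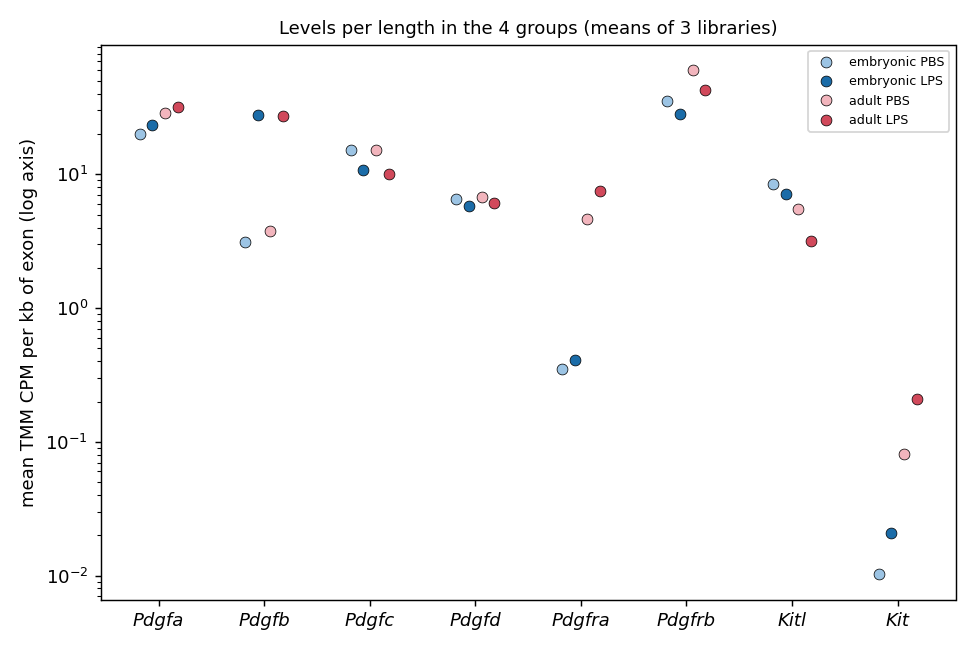
Mean TMM CPM per kb of exon (log axis) of the 8 genes, 1 point per group of 3 libraries. Pdgfrb has the highest mean in each group, level with Pdgfb in embryonic LPS (28.3 and 27.7 CPM per kb), Pdgfra drops to 0.350 and 0.409 CPM per kb in the 2 embryonic groups, and Pdgfb is at 27.2 and 27.7 CPM per kb with LPS against 3.74 and 3.10 with PBS.

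Pdgfra, the receptor of the A, B and C chains, was the member that differed most between the stages. In adult PBS its level was 28.6, 78.6 and 31.1 CPM in cultures 1, 2 and 3, and in embryonic PBS it was 2.39, 3.78 and 4.36 CPM. In adult LPS it was 51.1, 121.1 and 55.1 CPM, and in embryonic LPS 2.25, 5.57 and 4.48 CPM. Every adult library was above every embryonic one, the lowest adult value being 28.6 and the highest embryonic value 5.57 CPM. The embryonic values rested on 64 to 169 counts per library, so the gene was low there and not absent. With PBS the difference of embryonic against adult stroma was -3.72 on the log2 scale (SE 0.55, adjusted p = 0.00686), a level 13.1-fold higher in adult stroma. With LPS it was -4.18 (SE 0.56, adjusted p = 0.00561), or 18.1-fold. In the model of the 4 groups Pdgfra was the only 1 of the 7 tested members called in either comparison, among 4.08% of all tested genes called with PBS and 5.31% with LPS. The PBS and LPS libraries of a culture are not independent, so the 2 comparisons do not support each other as separate experiments.

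Adult culture 2, with the highest endothelial marker sum, also held the highest Pdgfra level under both treatments. Cultures 1 and 3 had nearly the same Pdgfra level as each other, 28.6 and 31.1 CPM with PBS, while their endothelial sums were 26.4 and 393.5 CPM. Without both libraries of adult culture 2 the log2 difference of Pdgfra between the stages was -3.09 with PBS (adjusted p = 0.00615) and -3.69 with LPS (adjusted p = 0.00467). Adult culture 2 also had the low fibroblast and smooth muscle sums given above. The part of any of these cells in its Pdgfra level was not tested, and they cannot be told apart in 1 culture.

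Markers of the fibroblasts that PDGFRA defines in the gut were read beside this difference, with no test of a list. Over all tested genes 4.08% were called between the stages with PBS and 5.31% with LPS. The 7 markers of PDGFRA-high subepithelial cells summed to 794.0 to 1917 CPM in adult and 895.3 to 1299 CPM in embryonic libraries, mostly from F3, which encodes tissue factor, while Foxl1, Bmp5 and Bmp7 averaged under 1 CPM in all 4 groups. Foxl1, a transcription factor of these cells, averaged 0.759 CPM in adult PBS and 0.192 CPM in embryonic PBS, and Bmp5 0.0123 and 0.0605 CPM. Neither passed the filter. Of the 4 tested, 1 differed between the stages, namely Wnt5a, a Wnt ligand, which was higher in embryonic stroma by 1.31 log2 units with PBS (SE 0.29, adjusted p = 0.0361) and by 1.48 with LPS (adjusted p = 0.0226). The 6 markers of PDGFRA-low trophocytes summed to 876.3 to 1301 CPM in adult and 863.5 to 1031 CPM in embryonic libraries, most of it from Cd81. Of these, 2 were lower in embryonic stroma with PBS, namely Pi16 (-3.30, SE 0.59, adjusted p = 0.0163) and the complement gene C3 (-5.78, SE 1.05, adjusted p = 0.0177), and with LPS Pi16 alone was called (-2.34, SE 0.56, adjusted p = 0.0424). Ccrl1 (now Ackr4) was at -1.42 with PBS (adjusted p = 0.0709) and -1.52 with LPS (adjusted p = 0.0538), and Cd81 at 0.05 with PBS (SE 0.22, adjusted p = 0.941). The median over the 6 was -0.86 with PBS and -0.88 with LPS, beside 0.018 and 0.019 over all tested genes. For the 4 tested PDGFRA-high markers the median went the other way, at 0.80 with PBS and 1.05 with LPS. The part of these cells in the Pdgfra difference was not tested.

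The plot of the 8 genes by library shows the lines of Pdgfra in the 2 stages far apart and, for Pdgfb, the rise from PBS to LPS in all 6 cultures.

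**Figure D2:**
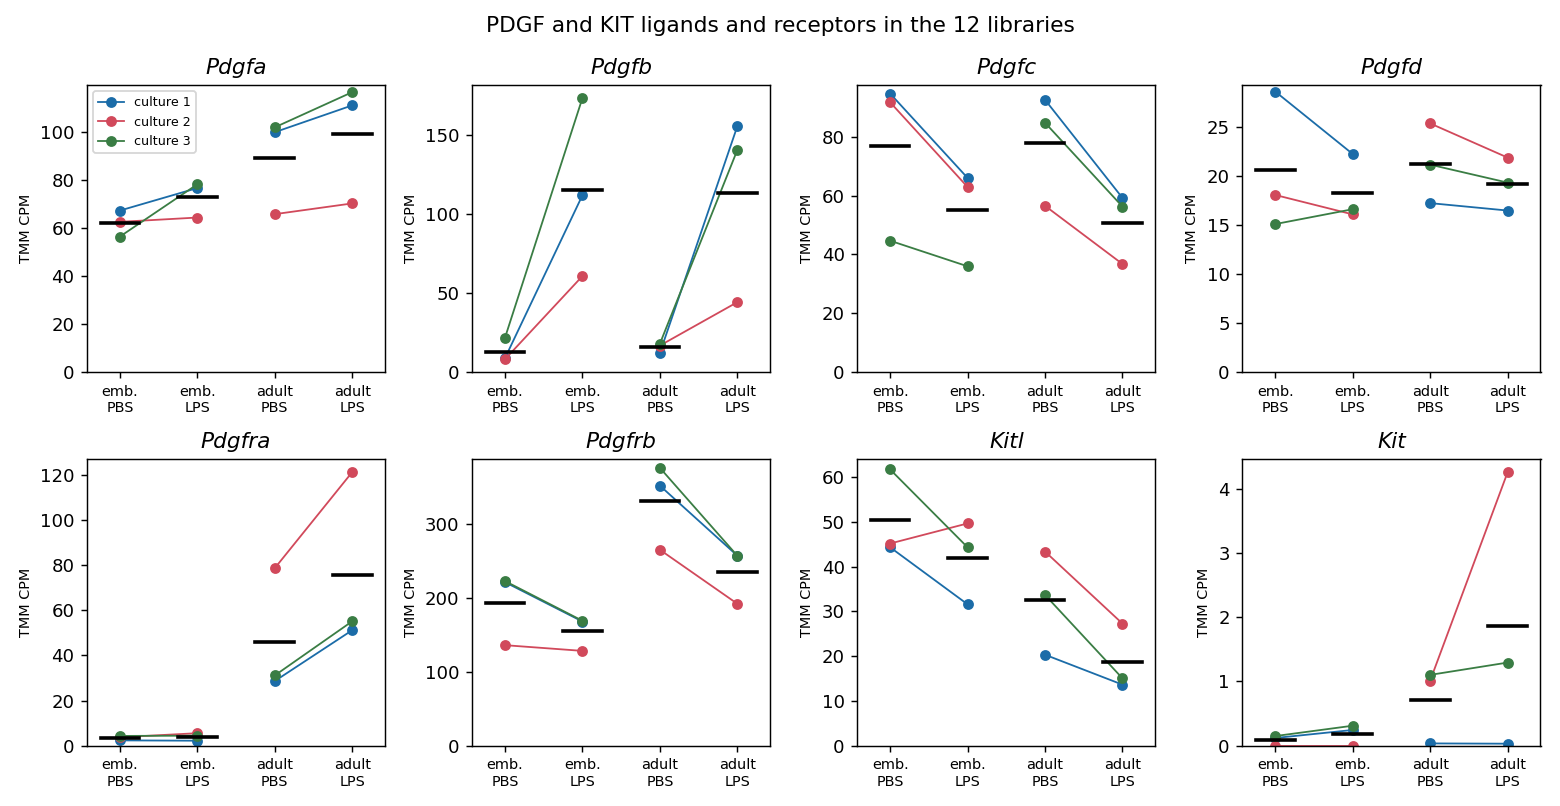
TMM CPM of each member in the 12 libraries, with lines joining the PBS and LPS libraries of the same number and black bars for the mean of 3; the vertical axis starts at 0 and differs between panels. Pdgfra lies between 28.6 and 121.1 CPM in adult and between 2.25 and 5.57 CPM in embryonic libraries, and Pdgfb between 44.2 and 173.3 CPM with LPS and between 8.10 and 21.7 CPM with PBS.

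Pdgfrb, the receptor of the B and D chains (GRCm38.p6, GENCODE vM21, chr18:61045150-61085061, plus strand), was detected in depth in every library, with 3892 to 10903 counts. It was 351.6, 264.9 and 375.7 CPM in adult PBS and 221.2, 136.0 and 222.6 CPM in embryonic PBS, so that each adult library was above each embryonic one. With LPS the values were 256.9, 192.0 and 256.9 CPM in adult and 168.0, 128.3 and 169.0 CPM in embryonic stroma, again without overlap. The share of all genes separated in this way was not computed. The log2 difference of embryonic against adult stroma was -0.78 with PBS (SE 0.21, adjusted p = 0.0723) and -0.59 with LPS (SE 0.21, adjusted p = 0.141), and neither passed the threshold. Among 23 alternatives 2 called the Pdgfrb difference with PBS and 1 with LPS. A block on the culture number across both stages called both (adjusted p = 0.00320 and 0.0126), though the numbers do not pair cultures across the stages. The 7 pericyte and mural cell markers summed to 680.4 to 808.2 CPM in adult and 417.3 to 953.9 CPM in embryonic libraries, mostly from Mcam, with Higd1b at 0 in all 12, and none of the 4 tested was called between the stages. Single markers lay far apart all the same. Rgs5 averaged 3.71 CPM in adult PBS and 106.5 CPM in embryonic PBS (4.86 log2 units, SE 1.34, adjusted p = 0.0708), and Cspg4 55.5 and 10.3 CPM (-2.43, SE 0.87, adjusted p = 0.151). The untested potassium channel genes Abcc9 and Kcnj8 averaged 0.236 and 0.172 CPM in adult PBS and 3.36 and 2.05 CPM in embryonic PBS. The ratio of Pdgfrb to Pdgfra per kb ranged from 6.17 to 22.5 in adult PBS and from 65.9 to 169.2 in embryonic PBS.

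Kit, the receptor of stem cell factor, was close to the floor in most libraries. Its counts in adult LPS were 1, 138 and 30 in cultures 1, 2 and 3, and in adult PBS 1, 21 and 32. In embryonic LPS they were 7, 0 and 8, and in embryonic PBS 4, 0 and 5. In CPM the adult LPS libraries held 0.0325, 4.25 and 1.29 and the adult PBS libraries 0.0368, 1.01 and 1.10, so 4 of the 12 libraries were above 1 CPM, all of them from adult cultures 2 and 3. The 2 embryonic libraries of culture 2 held no count, which allows up to 0.0989 CPM with LPS and 0.0914 CPM with PBS. With filters that kept Kit, the log2 difference of embryonic against adult stroma with PBS was -2.92 (adjusted p = 0.360 with edgeR's filterByExpr and 0.412 with no filter). With filterByExpr it was -3.31 with LPS (adjusted p = 0.244), and the LPS response was 0.99 in embryonic and 1.38 in adult stroma (adjusted p = 1.000 for both). The adult libraries of culture 1 lay below 4 of the 6 embryonic ones.

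Markers of the other cells that use KIT were mixed. Of the 8 mast cell markers, Mcpt4, Tpsb2 and Fcer1a were at 0 in all 12 libraries and Cpa3 was at 0 in the embryonic ones and at most 0.0964 CPM in the adult ones. In adult libraries most of the mast cell sum, 29.6 to 85.3 CPM, came from Gata2, a transcription factor that endothelial cells express too. Gata2 averaged 36.9 and 48.1 CPM in adult LPS and PBS and 2.09 and 2.69 CPM in embryonic LPS and PBS. The embryonic sums, 4.30 to 32.8 CPM, came mostly from Ms4a2 and, with LPS, from Hdc, the enzyme that makes histamine. Hdc averaged 0.0708 CPM in embryonic PBS and 9.64 CPM in embryonic LPS, a log2 response of 7.02 (SE 0.89, adjusted p = 0.00317), and with LPS it was 4.86 log2 units higher in embryonic than in adult stroma (SE 0.77, adjusted p = 0.0102). The embryonic PBS mean of Hdc lay below the floor of 3 counts, 0.0907 to 0.0914 CPM in those libraries. The size of its response is therefore poorly determined. Neither call of Hdc was examined with a library left out. The 6 markers of interstitial cells of Cajal, Kit among them, summed to 18.6 to 60.4 CPM in adult and 16.6 to 78.9 CPM in embryonic libraries, with adult culture 2 the highest of the adult ones. The most abundant were Elovl6 and Ano1 in adult and Hcn4 and Elovl6 in embryonic stroma, and Hcn4, a pacemaker channel, was higher in embryonic stroma with LPS (3.06, SE 0.74, adjusted p = 0.0432). Ano1, the chloride channel that defines these cells, averaged 11.8 and 8.87 CPM in adult LPS and PBS and 6.68 and 4.29 CPM in embryonic LPS and PBS.

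**Figure D3:**
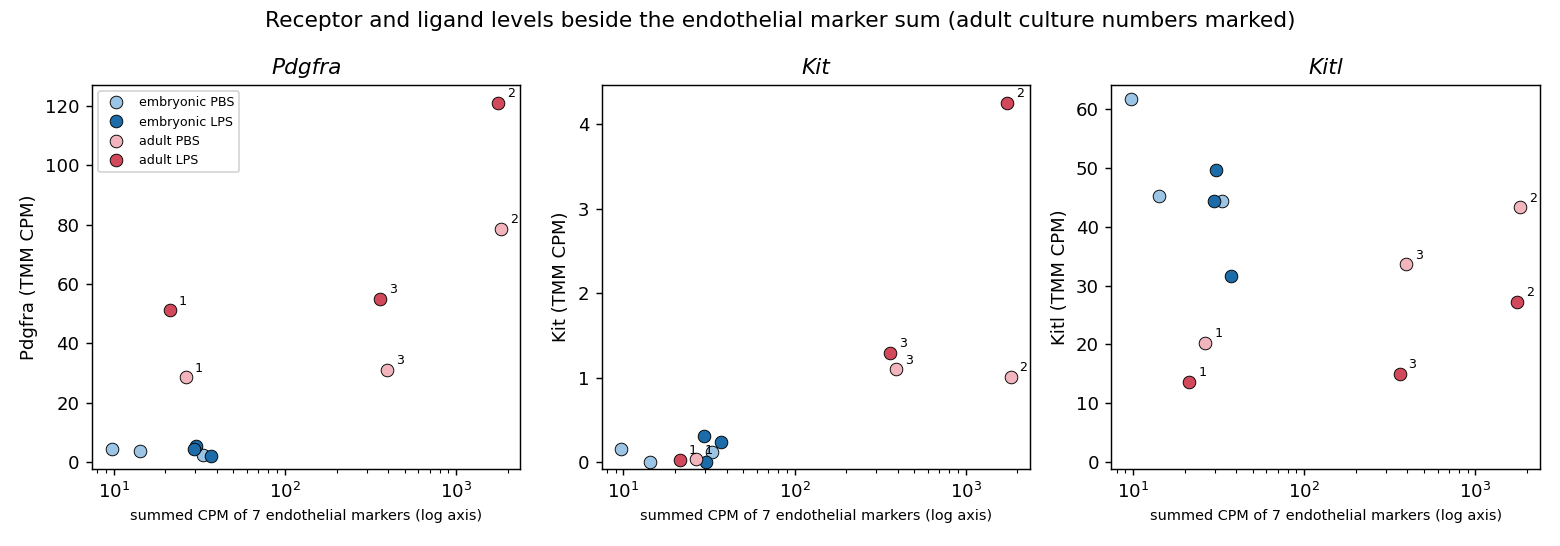
Levels of Pdgfra, Kit and Kitl (TMM CPM) against the summed CPM of 7 endothelial markers (log axis) in each library, with the adult cultures numbered. Adult culture 2 (sums of 1751 CPM with LPS and 1825 CPM with PBS) holds the highest Pdgfra values, 121.1 and 78.6 CPM. Its Kit value is the highest with LPS, 4.25 CPM, but with PBS it is 1.01 CPM beside 1.10 CPM in adult culture 3. Adult culture 1 (21.3 and 26.4 CPM) holds 51.1 and 28.6 CPM of Pdgfra and almost no Kit.

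Pdgfra and Kit are neighbours in the mouse genome, with the VEGF receptor gene Kdr beyond them (GRCm38.p6, GENCODE vM21). Pdgfra lies at chr5:75152292-75198215 and Kit at chr5:75574916-75656722, both on the plus strand and 376.7 kb apart, and Kdr at chr5:75932827-75978458 on the minus strand, 276.1 kb from Kit. Of the other members, Pdgfa lies at chr5:138976014-138997370 (minus strand), Pdgfb at chr15:79995874-80014977 (minus), Pdgfc at chr3:81036416-81214040 (plus), Pdgfd at chr9:6168584-6378850 (plus) and Kitl at chr10:100015630-100100416 (plus). Kdr did not follow Pdgfra between the stages. It was 15.1, 13.7 and 17.0 CPM in adult PBS and 8.75, 12.2 and 7.47 CPM in embryonic PBS, a log2 difference of -0.69 (SE 0.33, adjusted p = 0.283). With LPS it was higher in embryonic stroma, at 11.3, 28.2 and 26.5 CPM against 9.39, 7.37 and 6.73 CPM, a log2 difference of 1.51 (SE 0.33, adjusted p = 0.0312) that no longer passed without any 1 adult LPS library, adult PBS culture 3, or embryonic LPS culture 2 or 3 (adjusted p of 0.0529 to 0.133). Pdgfrb lies 15.5 kb from Csf1r, the receptor gene of macrophages, and Csf1r averaged 10.2 CPM in each adult group, 123.8 CPM in embryonic PBS and 69.4 CPM in embryonic LPS, with log2 differences between the stages of 3.60 (SE 1.16, adjusted p = 0.111) with PBS and 2.79 (SE 1.12, adjusted p = 0.180) with LPS.

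The promoters of 3 members are printed because the members differ in how they moved, namely Pdgfra between the stages, Pdgfc with LPS and Kitl in adult stroma with LPS. The set of promoters used (GRCm38.p6) had an entry for 6 of the 8 members and none for Pdgfb and Pdgfrb. Each printed window runs from 250 bases before to 50 bases after a start of the gene in that set. For Pdgfra and Kitl this start differs from the GENCODE gene start given above. Motif positions below count from the start used for the window. Capitals mark matches on either strand to 5 motifs. These were the NF-kB consensus, the GC box core GGGCGG, the TATA box TATAAA, the CCAAT box and the AP-1 motif TGACTCA. The first is Pdgfra at chr5:75152001-75152300 (plus strand), the second Pdgfc at chr3:81036166-81036465 (plus strand) and the third Kitl at chr10:100015571-100015870 (plus strand).
Pdgfra: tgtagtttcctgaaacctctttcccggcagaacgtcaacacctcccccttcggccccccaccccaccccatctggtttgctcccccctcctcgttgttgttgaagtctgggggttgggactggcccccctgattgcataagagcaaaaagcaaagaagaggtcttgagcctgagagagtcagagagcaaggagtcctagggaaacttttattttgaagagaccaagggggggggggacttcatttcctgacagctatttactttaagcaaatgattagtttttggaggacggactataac
Pdgfc: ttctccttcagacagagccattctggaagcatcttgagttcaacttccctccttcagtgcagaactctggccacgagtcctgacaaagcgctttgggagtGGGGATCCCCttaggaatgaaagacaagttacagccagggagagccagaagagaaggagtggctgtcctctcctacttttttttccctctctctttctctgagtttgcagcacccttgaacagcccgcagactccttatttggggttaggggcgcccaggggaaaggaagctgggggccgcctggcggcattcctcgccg
Kitl: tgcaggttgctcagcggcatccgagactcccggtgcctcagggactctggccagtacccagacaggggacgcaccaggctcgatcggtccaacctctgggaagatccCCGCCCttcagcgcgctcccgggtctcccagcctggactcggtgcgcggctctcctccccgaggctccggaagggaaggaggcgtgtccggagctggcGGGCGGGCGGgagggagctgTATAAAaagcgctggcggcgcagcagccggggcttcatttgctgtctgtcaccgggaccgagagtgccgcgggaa

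None of the 5 motifs was in the Pdgfra window, whose G and C content was 51.0% with 5 CpG sites, near the median of 52.7% and 7 over 32851 promoters. The Pdgfc window held 1 palindromic match to the NF-kB consensus, at -150 to -141 from the start, which reads the same on both strands, and 4.51% of all promoters held such a match. The Kitl window held TATAAA at -25 to -20 from the start (13.6% of promoters) and GGGCGG 3 times (35.7%), of which 2 matches overlapped, and its G and C content was 68.7% with 28 CpG sites. CCAAT, in 37.4% of promoters, and TGACTCA, in 5.2%, were in none of the 3. A match is a string of letters in the window and was not tested for binding.

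Pdgfb, the B chain, was the member with the strong response to LPS. In embryonic PBS it was 8.81, 8.10 and 21.7 CPM in cultures 1, 2 and 3, and in embryonic LPS 111.8, 60.7 and 173.3 CPM. In adult PBS it was 12.1, 16.7 and 17.9 CPM, and in adult LPS 155.5, 44.2 and 140.4 CPM. All 6 LPS libraries were above all 6 PBS libraries. In embryonic stroma the log2 response was 3.18 (SE 0.57, adjusted p = 0.0164), a 9.07-fold rise. In adult stroma it was 2.87 (SE 0.57, adjusted p = 0.0584), 7.33-fold, and did not pass the threshold. With the culture number as a block within each stage (a replicate block) the response was 3.21 in embryonic stroma (SE 0.39, adjusted p = 0.00140) and 2.72 in adult stroma (SE 0.39, adjusted p = 0.00609), so that Pdgfb rose at both stages.

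The rise of Pdgfb was uneven between adult cultures. From PBS to LPS the log2 CPM rose by 3.68, 1.40 and 2.97 in adult cultures 1, 2 and 3, the smallest step being in culture 2, and by 3.66, 2.89 and 2.99 in the embryonic cultures. Without adult culture 2 the blocked response in adult stroma was 3.33 (adjusted p = 0.000715), and without adult culture 3 it was 2.54 (adjusted p = 0.0768), which did not pass. Without the block, leaving out 1 library (embryonic LPS culture 3, embryonic PBS culture 1 or embryonic PBS culture 2) ended the embryonic call, with adjusted p of 0.0531, 0.100 and 0.0632, and so did a fit of the 2 embryonic groups alone (adjusted p = 0.132). The difference between the 2 responses was 0.31 on the log2 scale (SE 0.75, adjusted p = 1.000) without the block and 0.49 (SE 0.52, adjusted p = 0.869) with it, an interval too wide to show that the stages responded alike. Per kb, Pdgfb stood at 0.0905 to 0.288 of the Pdgfa level in the 6 PBS libraries and at 0.471 to 1.66 of it in the 6 LPS libraries.

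Without the block Pdgfb was the only member called among 2.75% of all tested genes in embryonic stroma, and no member was called in adult stroma, where 0.606% of genes were. In adult stroma 3 of the 7 members had an unadjusted p under 0.05 in edgeR, and DESeq2 called 1, Pdgfb. With the block, 12.5% of genes were called in embryonic and 6.2% in adult stroma. At these rates 2 of the 7 members were called in embryonic stroma (Pdgfb and Pdgfc) and 5 in adult stroma (Pdgfb and Pdgfra higher, Pdgfc, Pdgfrb and Kitl lower). The median log2 response of the 7 members was -0.11 in embryonic and -0.13 in adult stroma with the block, beside medians of 0.0013 and -0.0089 over all tested genes.

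**Figure D4:**
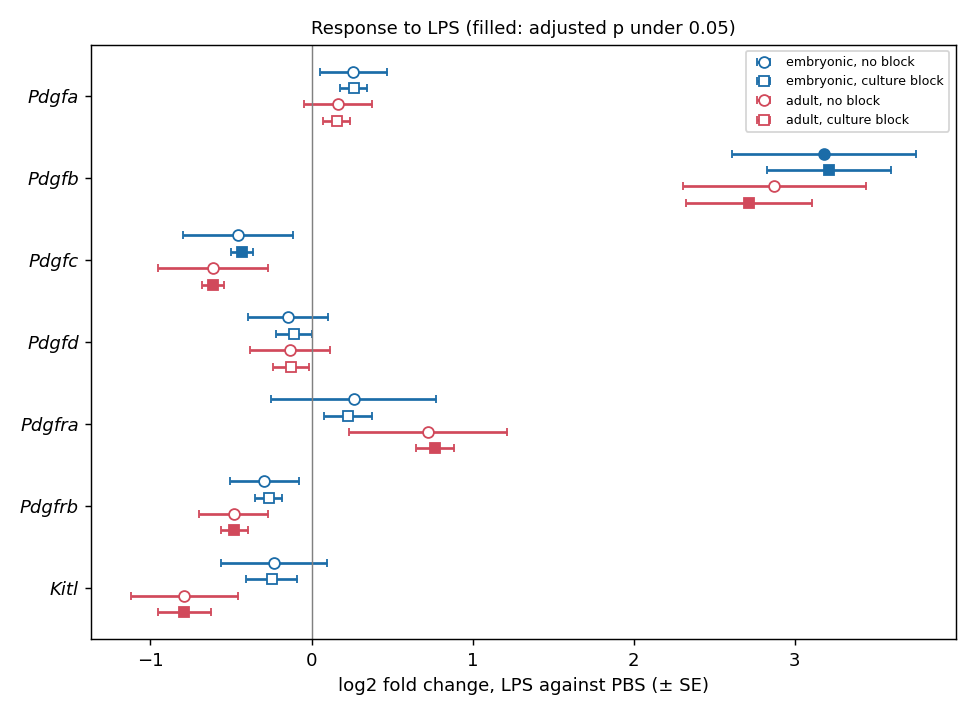
Log2 fold change of LPS against PBS (± SE) for the 7 tested members, in embryonic (blue) and adult (red) stroma, without the block (circles) and with the replicate block (squares); filled symbols have an adjusted p under 0.05. Pdgfb lies at 2.72 to 3.21 in all 4 fits, and the other members lie between -0.79 and 0.77.

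Pdgfc, a ligand of PDGFRA, fell by a small amount in every culture. It went from 94.7, 91.7 and 44.6 CPM with PBS to 66.0, 62.9 and 36.0 CPM with LPS in embryonic cultures 1, 2 and 3, and from 92.6, 56.5 and 84.8 CPM to 59.2, 36.7 and 56.3 CPM in adult cultures. The cultures differed more from each other than LPS from PBS, so that the groups overlapped, while the step within a culture was much alike in the 3 adult cultures (log2 differences of -0.64, -0.62 and -0.59). With the block the log2 response was -0.43 in embryonic stroma (SE 0.07, adjusted p = 0.00560) and -0.61 in adult stroma (SE 0.07, adjusted p = 0.00197). Without it the values were -0.46 (adjusted p = 0.836) and -0.61 (adjusted p = 1.000). The blocked call held without any 1 culture, with adjusted p of at most 0.0328 in embryonic and 0.0356 in adult stroma. No stage difference was called, at -0.01 with PBS (SE 0.34) and 0.14 with LPS (SE 0.34).

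In adult stroma the receptors moved in opposite directions with LPS when the cultures were paired. Pdgfra rose by 0.83, 0.62 and 0.82 log2 units in cultures 1, 2 and 3, and the blocked response was 0.77 (SE 0.12, adjusted p = 0.00805). Pdgfrb went down by 0.45, 0.46 and 0.55 log2 units in the same cultures, with a blocked response of -0.48 (SE 0.08, adjusted p = 0.0161). Neither was called without the block, at 0.72 for Pdgfra (adjusted p = 1.000) and -0.48 for Pdgfrb (adjusted p = 0.869). With 2 cultures left in the adult fit the Pdgfra call was lost without culture 1 (adjusted p = 0.0892) or culture 3 (adjusted p = 0.0935), and the Pdgfrb call was lost without culture 1, 2 or 3 (adjusted p = 0.105, 0.0817 and 0.127). The log2 values themselves stayed between 0.72 and 0.84 for Pdgfra and between -0.50 and -0.47 for Pdgfrb when an adult culture was left out.

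In embryonic stroma the same receptors gave blocked log2 responses of 0.23 for Pdgfra (SE 0.15, adjusted p = 0.381) and -0.27 for Pdgfrb (SE 0.08, adjusted p = 0.0845). Without embryonic culture 2 the Pdgfrb response was -0.39 (adjusted p = 0.00825) and passed. That culture held the low fibroblast and high mesothelial sums given above. Pdgfra differed in sign between the embryonic cultures, at -0.09, 0.55 and 0.04. The difference of the 2 stage responses was -0.54 for Pdgfra (SE 0.19, adjusted p = 0.423) and 0.21 for Pdgfrb (SE 0.12, adjusted p = 0.685) with the block, so a stage-specific response was not shown for either. No member was called in this interaction, for which 0% of genes were called without the block and 0.844% with it. Without the block 0 members and 293 of the 13038 genes had an unadjusted p under 0.05 in edgeR, and DESeq2 called 25 genes and no member. With it 2 members, Pdgfra and Kitl, had an unadjusted p under 0.05, and DESeq2 called 270 genes and no member.

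Kitl, which encodes stem cell factor, went from 20.3, 43.4 and 33.7 CPM with PBS to 13.6, 27.3 and 15.1 CPM with LPS in adult cultures 1, 2 and 3. The embryonic values were 44.3, 45.1 and 61.7 CPM with PBS and 31.6, 49.6 and 44.3 CPM with LPS. All 3 adult cultures went down with LPS, while embryonic culture 2 went up. The blocked log2 response was -0.79 in adult stroma (SE 0.16, adjusted p = 0.0311) and -0.25 in embryonic stroma (SE 0.16, adjusted p = 0.370), and the adult call was lost without any 1 adult culture (adjusted p of 0.0944 to 0.182). The interaction was 0.54 (SE 0.23, adjusted p = 0.539) with the block.

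Within each treatment the Kitl values lay higher in embryonic libraries, but the fit without a block called no difference with all libraries. The share of all genes separated in this way was not computed, and PBS and LPS libraries of a culture are not independent. Every embryonic PBS library was above every adult PBS library, the closest pair being 44.3 and 43.4 CPM, and every embryonic LPS library was above every adult LPS library, the closest being 31.6 and 27.3 CPM. The log2 difference of embryonic against adult stroma was 0.63 with PBS (SE 0.33, adjusted p = 0.329) and 1.19 with LPS (SE 0.34, adjusted p = 0.0690), and neither passed the threshold. Without both libraries of adult culture 2, which held the highest adult Kitl level, it was 1.55 with LPS (adjusted p = 0.0360). Among 23 alternatives 3 called the Kitl difference with LPS, that one included, and 0 called it with PBS. Another of the 3 was a block on the culture number across both stages, at 1.21 (SE 0.23, adjusted p = 0.0183). The numbers do not pair cultures across the stages.

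**Figure D5:**
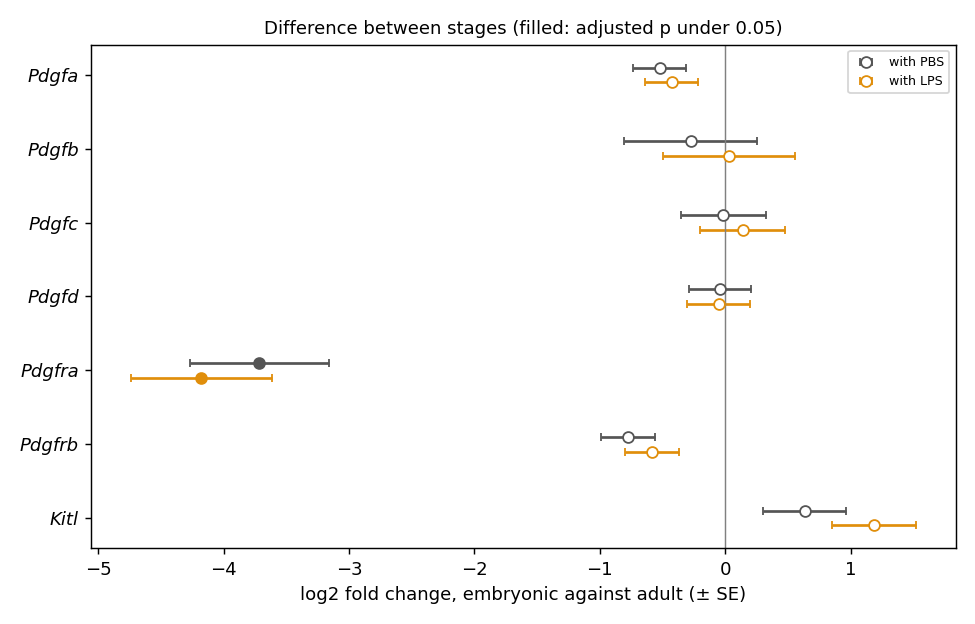
Log2 fold change of embryonic against adult stroma (± SE) for the 7 tested members, with PBS (grey) and with LPS (orange), from the fit without a block; filled symbols have an adjusted p under 0.05. Pdgfra lies at -3.72 and -4.18 and is the only filled gene, and the other members lie between -0.78 and 1.19.

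Pdgfa, the A chain, was 100.1, 65.9 and 102.1 CPM in adult PBS, 111.3, 70.4 and 116.8 CPM in adult LPS, 67.4, 62.7 and 56.5 CPM in embryonic PBS and 76.8, 64.5 and 78.3 CPM in embryonic LPS. Adult cultures 1 and 3 were above all embryonic libraries, and adult culture 2 lay among them. The log2 difference between the stages was -0.52 with PBS (SE 0.21, adjusted p = 0.199) and -0.43 with LPS (SE 0.21, adjusted p = 0.271). Without adult culture 2 it was -0.70 with PBS (adjusted p = 0.0315) and -0.64 with LPS (adjusted p = 0.0455), so that culture decided the call. It differed from the other adult cultures in its fibroblast, smooth muscle and endothelial sums, and the part of these in the call was not tested. All 6 cultures held more Pdgfa with LPS, and the blocked log2 response was 0.26 in embryonic stroma (SE 0.08, adjusted p = 0.0849) and 0.16 in adult stroma (SE 0.08, adjusted p = 0.399). Without embryonic culture 2 the embryonic response was 0.34 (adjusted p = 0.0485).

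Pdgfd, a ligand of PDGFRB, varied least between the groups, with means of 21.3 ± 4.1 CPM in adult PBS, 19.2 ± 2.7 in adult LPS, 20.6 ± 7.1 in embryonic PBS and 18.3 ± 3.4 in embryonic LPS (SD, n = 3). Its 5 log2 differences lay between -0.14 and -0.01 without the block, with SE of 0.25 to 0.35, and none was called. Its libraries ran from 15.1 to 28.6 CPM, both of these in embryonic PBS.

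For each tested member the 2 genes most like it over the 12 libraries were found by Pearson's r of log2 CPM, given as a description, since libraries of 1 culture and of 1 group are not independent. For Pdgfra these were Sod3 (r = 0.977), which encodes an extracellular superoxide dismutase, and Cd200 (r = 0.977), which encodes a surface ligand that restrains myeloid cells. Sod3 averaged 18.1 CPM in adult PBS and 0.233 CPM in embryonic PBS, and Cd200 62.5 and 5.49 CPM. For Pdgfb they were Stx11 (r = 0.975) and Nfkbie (r = 0.961), which encodes an inhibitor of NF-kB, and Nfkbie averaged 3.75 CPM in embryonic PBS and 78.6 CPM in embryonic LPS. For Pdgfc they were Tgfb3 (r = 0.961), a TGF-beta ligand, and Camsap2 (r = 0.931).

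The nearest genes of the others were 2310022B05Rik (r = 0.964) and Nacc2 (r = 0.957) for Pdgfrb, Rem1 (r = 0.952) and Trio (r = 0.943) for Pdgfa, Tceal8 (r = 0.906) and Gabbr1 (r = 0.904) for Pdgfd, and Lsm2 (r = 0.927) and Susd1 (r = 0.917) for Kitl. Tgfb3, the most like Pdgfc, averaged 746.2 CPM in adult PBS, 520.5 in adult LPS, 689.4 in embryonic PBS and 478.9 in embryonic LPS.

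Other genes of the pathway were read from lists of known roles. Of the 12 genes that process the ligands or act as co-receptors, none was called in the LPS responses without the block, and 4 were called as higher in embryonic and 3 in adult stroma with it. These were Plat, Plau and Mmp9 at both stages and Adam17 in embryonic stroma, all encoding proteases. With the block 12.5% of all tested genes were called in embryonic and 6.2% in adult stroma. Plat, tissue plasminogen activator, which cleaves the C chain, averaged 39.3 CPM in adult PBS and 118.2 CPM in adult LPS, and its blocked log2 response was 1.56 (SE 0.20, adjusted p = 0.00363) in adult and 0.84 (SE 0.20, adjusted p = 0.0308) in embryonic stroma. Plau, urokinase, which cleaves the D chain, averaged 92.7 CPM in adult PBS and 399.0 CPM in adult LPS, with blocked responses of 1.88 (SE 0.27, adjusted p = 0.00662) in adult and 1.14 (SE 0.27, adjusted p = 0.0296) in embryonic stroma. Nrp1, a co-receptor, was the gene of this list called between the stages, 1.14 log2 units higher in embryonic stroma with LPS (SE 0.25, adjusted p = 0.0314), a call lost without any 1 adult LPS library, adult PBS culture 3, or embryonic LPS culture 1 or 3 (adjusted p of 0.0542 to 0.115). With the block, the calls of Mmp9, Adam17 and adult Plat held without any 1 culture. Those of embryonic Plat were lost without embryonic culture 2 or 3 or adult culture 3, of embryonic Plau without embryonic culture 1 or 2 or adult culture 3, and of adult Plau without adult culture 1 or 3 (adjusted p of 0.0576 to 0.134).

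Of the 30 genes of the shared signal relay, 2 were called without the block, both between the stages with LPS, where 5.31% of all tested genes were called. The 2 were Shc1, an adaptor protein (-0.35, SE 0.08, adjusted p = 0.0389), and Lyn, a Src family kinase abundant in leukocytes (2.14, SE 0.46, adjusted p = 0.0296). Without any 1 library of 9 for Shc1 and of 5 for Lyn, adult PBS culture 3 and each adult LPS library among them, these calls were lost (adjusted p of 0.0583 to 0.142 and 0.0512 to 0.127). With the block, Gab2 in embryonic and Stat5a in adult stroma were called as higher with LPS, the first lost without embryonic culture 3 (adjusted p = 0.0677) and the second without adult culture 1 or 3 (adjusted p = 0.195 and 0.217). The median log2 response of this list was 0.05 in embryonic and -0.01 in adult stroma with the block, near the 0.0013 and -0.0089 of all tested genes. Of the 12 genes that attenuate the receptors, none was called without the block, and Ptpn2, a phosphatase, was called as higher at both stages and Ptprj in embryonic stroma with it. The embryonic calls held without any 1 culture, and the adult call of Ptpn2 was lost without any 1 adult culture or embryonic culture 1 (adjusted p of 0.0596 to 0.305). For both lists the background with the block was 12.5% of all tested genes called in embryonic and 6.2% in adult stroma.

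Among the 5 other receptors and ligands of the same receptor class, 4 were tested and Flt3 was not. Il34, a ligand of CSF1R, averaged 2.44 CPM in adult PBS and 0.253 in embryonic PBS, and 2.21 and 2.22 CPM in adult and embryonic LPS. It was lower in embryonic stroma with PBS (-3.24, SE 0.63, adjusted p = 0.0233) and rose with LPS in embryonic stroma (3.12, SE 0.63, adjusted p = 0.0276). Each of these calls was lost without 1 of 5 libraries (adjusted p of 0.0520 to 0.0801 for the stage difference and 0.0518 to 0.142 for the response), adult PBS culture 3 among them. With the block the response was 2.91 (SE 0.46, adjusted p = 0.00561) and was called without any 1 culture. Csf1, the other ligand of CSF1R, was called with the block only, at a log2 response of 1.65 (SE 0.41, adjusted p = 0.0382) in embryonic stroma, where it averaged 965.9 CPM with PBS and 2341 CPM with LPS. It was lost without any 1 culture other than embryonic culture 2 (adjusted p of 0.0711 to 0.169).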

How the data were processed

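Strand-specific, poly(A)-selected mRNAseq libraries (12, 75 bp single-end reads) were trimmed, mapped by the authors with STAR to GRCm38.p6 (mm10) with at most 1 mismatch and unique mapping, and deposited as raw read counts per gene, without normalization. The files give counts without regard to strand and for each strand, and the strand with nearly all counts was used, the opposite strand holding 1.14% to 1.98%. Groups and numbers came from the sample labels.

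Counts were analysed with R 4.3.3, edgeR 4.0.16, limma 3.58.1 and DESeq2 1.42.0. Genes with CPM above 0.5 in all libraries of at least 1 group were tested with edgeR's quasi-likelihood test in a model of 4 groups after TMM normalization, and p-values were adjusted by Benjamini and Hochberg over the 13038 genes. Calls needed an adjusted p under 0.05. The SE of a log2 fold change is its size over the square root of F. Differences within a culture used log2 CPM with a prior count of 2. Comparisons were LPS against PBS at each stage, their interaction, and embryonic against adult stroma with each treatment. The LPS responses were refitted with the culture number as a block inside each stage. The numbers are taken as pairs because deviations of same-numbered LPS and PBS libraries from their group means correlated at 0.610 to 0.850, over 0.1 in all 6 pairs. Alternatives were other filters, normalizations, tests and strands, thinned counts, and each library left out.

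The members and gene lists were chosen with earlier results of these data known. Named genes are all 8 members, the 2 genes with the highest r to each tested member, up to 4 called genes of each related list, with Kdr and Csf1r as genomic neighbours, and the highest and zero markers; genes called only with the block, and single markers named for their role, were chosen after their values were seen. Of the listed genes, Hras1, Ccrl1 and Emr1 were matched through older symbols. Exon lengths are the union of exons in GENCODE vM21. Cultures were independent, but the embryonic ones were pools of embryos.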

Additional observations from a re-analysis of the deposited data

Results flagged for a closer look

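The response of Kdr to LPS differed between the stages. With the replicate block the embryonic response was 1.17 (SE 0.25, adjusted p = 0.0220) and the adult response -0.96 (SE 0.26, adjusted p = 0.0787) on the log2 scale, and their difference was 2.13 (SE 0.36, adjusted p = 0.0481). Without the block the difference was 2.20 (SE 0.47, adjusted p = 0.968). With the block it no longer passed without any 1 adult culture or embryonic culture 2, at 1.93 to 2.28 (adjusted p of 0.0888 to 0.252).

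Counts on the strand opposite to Pdgfb, which entered only the alternative without regard to strand, were higher in every LPS library than in any PBS library of the same stage. They came to 86 with LPS and 14 with PBS over the 3 embryonic libraries each, and to 76 and 10 over the adult ones, or 0.922% and 0.80% of the Pdgfb counts on both strands. Over all genes the opposite strand held 1.14% to 1.98% of the counts per library, above both shares.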

How the results depend on the processing

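Of 945 refits of the members' log2 fold changes, 862 kept their direction and their side of the threshold, 23 passed it where they had not, 13 no longer passed, and 47 changed sign with no call in either fit. Pdgfra between the stages was called under all 23 alternatives with each treatment. The number of members called was 1 in embryonic stroma without the block, 2 with the replicate block within a stage, 0 with the 2 groups compared alone, and 0 to 1 when a library was left out. In adult stroma it was 0 without the block, 5 with the replicate block within a stage, and 1 with the block across stages, with no normalization factors and with DESeq2, and 0 to 1 when a library was left out (1 without adult LPS culture 2, embryonic LPS culture 3 or embryonic PBS culture 3). With PBS, 1 member differed between the stages, and 2 with the block across stages (which the numbers do not pair, with correlations of -0.306 to -0.0022), with DESeq2 or without adult culture 2. With LPS it was 1, and 3, 2 and 3 under the same settings. With the replicate block, leaving out a culture gave 2 to 4 members in embryonic stroma (4 without embryonic culture 2) and 1 to 5 in adult stroma. Of the 60 related genes, 5 were called in any comparison, 15 with DESeq2, and 0 to 10 when a library was left out (0 without adult PBS culture 3, 10 without embryonic PBS culture 2). With the replicate block 11 were called, but that fit covered only the LPS responses and their interaction. In those comparisons Il34 alone was called without the block. For these counts the share of all tested genes called in any comparison was not computed, so they have no background to be read against. Nor was a share computed for the member counts with the block across stages, with no normalization factors, or with libraries left out. Over all genes the replicate block raised the calls from 358 to 1635 in embryonic and from 79 to 808 in adult stroma. DESeq2 raised them to 684 and 294, and, between the stages, from 532 to 1552 with PBS and from 692 to 1704 with LPS. The causes were not tested. Kit, with 0 to 138 counts per library, was tested only with other filters or when a library was left out, and was not called.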
